A study of Mus musculus with 94 samples.

Results

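The 8 effector cytokine genes described here were followed across single basophils of mouse bone marrow: Il4, Il13, Il6, Osm, Csf1, Tnf, Areg and Tgfb1. They were chosen by name, and all 8 were found among the 46078 gene identifiers of the count table. The cells were live marrow cells of 3 female C57BL/6 mice that lacked lineage markers and Sca1 and carried the IgE receptor FcεRI. They were sorted one by one by the progenitor marker CD34 into a CD34-negative and a CD34-positive gate of 47 cells each. No stimulus is named in the labels, the age of the mice is not given in the sources used here, and both gates share strain, sex and tissue. The labels do not assign cells to mice, so each gate counts as 1 sample. The gates are therefore described without a test, and the spread shown is the spread between cells.

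Basophils are rare granulocytes that take up IgE through FcεRI and release histamine and cytokines when that IgE is crosslinked. They are a well-known source of IL-4 and IL-13, the cytokines of the type 2 response, and the mouse Il4 locus is known to be open for transcription in basophils before they are activated. The messages of many cytokines carry AU-rich elements in their 3′ untranslated region, which proteins such as the one encoded by Zfp36 bind to speed the decay of the message.

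The 92 kept cells, 46 per gate, had between 262944 and 938322 gene reads in the CD34-negative gate (median 737059) and between 374011 and 1154738 in the CD34-positive gate (median 633178). CD34-negative cell 20 and CD34-positive cell 3 had fewer than 50000 gene reads each and were left out. CD34-positive cells gave more gene reads per read of the ERCC spike-in RNA added to every reaction, with a median of 14.4 against 6.87, and more genes with a read, with a median of 7511.5 against 5303.5. Cd34 itself had 7 reads in CD34-negative and 1799 in CD34-positive cells. All 10 basophil markers had reads, with a summed level of 46274 counts per 1e6 gene reads (CPM) in the CD34-negative gate and 98401 CPM in the CD34-positive gate. Of these 10 genes 2 were at least 2-fold lower and 3 (Mcpt8, Prss34 and Cpa3) at least 2-fold higher in the CD34-positive gate, and their part in the cytokine levels was not tested. CD34-negative cell 10 went against its sort label, with 3.80 CPM of the transcription factor gene Gata2 and 7.61 CPM of Fcer1a, where the lowest other cells of its gate had 929 and 222.9 CPM. The same cell had 966 CPM of Csf1r and 517 CPM of Cd68, genes of monocytes and macrophages, above every other cell of its gate. It had no read of Il4, Il6 or Osm, 3.80 CPM of Csf1 and 410.7 CPM of Tgfb1. Results are given with it, since leaving it out moved the log2 fold of Tgfb1 from 0.17 to 0.18 and that of Osm from -2.46 to -2.47, and changed the others as little. CD34-positive cell 1 had basophil levels of Gata2 (2468 CPM) and Fcer1a (1138 CPM) but lay below every other cell of its gate for Mcpt8 (13.4 CPM), Prss34 (50.1), Cpa3 (230) and Cd200r3 (1.67). It had no read of Il4, Il6 or Osm, 592 CPM of Csf1 and 534 CPM of Tgfb1. Without it the log2 folds were -1.28 for Il4, -0.78 for Il6, -2.43 for Osm, -1.12 for Csf1, -1.07 for Il13 and 0.13 for Tgfb1, close to the values with it given below.

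Il4 and Il13 are neighbours on mouse chromosome 11 (GRCm38, the build the submitters' processing notes call mm10), on the minus strand, with 12654 bases between them. Il4 (ENSMUSG00000000869) lies at chr11:53602982-53618669 and Il13 (ENSMUSG00000020383) at chr11:53631324-53634702. Their promoters are shown because the pair shares a locus while its levels here lay far apart. Each line holds the 250 bases before the RefSeq start (GRCm38.p6), at chr11:53618666-53618915 and chr11:53634703-53634952, read 5′ to 3′ on the minus strand. Capitals mark GGAAA on either strand (TTTCC as printed on the other), the core letters of sites that NFAT proteins, the calcium-dependent activators of cytokine genes, are known to bind.
Il4 promoter: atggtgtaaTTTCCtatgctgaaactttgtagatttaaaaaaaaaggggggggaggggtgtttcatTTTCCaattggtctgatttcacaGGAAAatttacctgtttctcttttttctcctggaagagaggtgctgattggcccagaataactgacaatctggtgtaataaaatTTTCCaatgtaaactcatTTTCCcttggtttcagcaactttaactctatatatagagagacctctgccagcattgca
Il13 promoter: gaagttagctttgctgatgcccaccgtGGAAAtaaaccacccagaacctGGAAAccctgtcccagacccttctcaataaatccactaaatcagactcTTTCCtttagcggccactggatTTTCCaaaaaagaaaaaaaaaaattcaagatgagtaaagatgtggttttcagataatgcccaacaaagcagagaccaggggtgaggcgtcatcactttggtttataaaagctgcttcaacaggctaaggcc
The Il4 window at the gene's annotated start holds 5 matches and the Il13 window 4, while a second RefSeq window of Il4, at another start, holds 0. Windows were matched for 7 of the 8 genes, all but Osm. Of 32851 mouse promoter windows of that length, 55.6% hold at least 1 match, 0.390% at least 5 and 1.59% at least 4. The windows of Il6, Csf1 and Tnf hold 3 matches each, Areg holds 1 and Tgfb1 holds 0. A match is a run of letters and not a measured site.

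AU-rich elements were looked for in the 3′ untranslated region of the principal GENCODE M21 transcript as TATTTAT on the transcript's strand, with overlapping matches counted. Tnf (ENSMUSG00000024401, chr17:35199381-35202007, minus strand) holds 8 in 764 bases, and 0.169% of 1185 genes with a region of similar length (within 10%) hold as many. Il4 holds 2 in only 104 bases, which 0.243% of 411 genes of similar length match, and Osm (ENSMUSG00000058755, chr11:4236420-4241026, plus strand) holds 3 in 1017 bases, which 1.93% of 1344 genes match. Their densest stretches are shown because these 3 genes hold the most matches while Il4 was found in most cells, Osm in a part and Tnf in a handful. Capitals mark the matches, at chr11:53612487-53612516 (minus strand), chr11:4240946-4240975 (plus strand) and chr17:35199681-35199710 (minus strand), GRCm38.
Il4 3′ site: ttaaTATTTATaTATTTATaattcataaaa
Osm 3′ site: tttaTATTTATaaggccTATTTATaatgta
Tnf 3′ site: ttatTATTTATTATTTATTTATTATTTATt
Il13, Il6, Csf1 and Areg hold 1 match each, and Tgfb1 holds 0 in 135 bases. Of all 20745 coding genes with such a region, 26.1% hold at least 1. Il4 and Osm, which had many reads, and Tnf, which had few, thus all hold several. Csf1, which had the highest level, and Areg, which had no read, hold 1 each. The relation of matches to level was not tested.

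The levels of the 8 genes covered a wide range within the same cells. Levels between genes are compared as CPM of the summed reads of a gate per 1000 bases of exon (CPM per kb). In the CD34-negative gate Csf1 had 207.8 CPM per kb, Il4 112.7, Il6 98.6, Osm 49.7, Tgfb1 39.3, Il13 1.99 and Tnf 0.274, and Areg had no read. Csf1 was thus the highest of the 8 and stood at the 99.3 percentile of all genes with reads, while Il13, the gene next to Il4, stood at the 51.5 percentile. In the CD34-positive gate the order was Csf1 96.2, Il6 56.1, Il4 44.9, Tgfb1 44.2, Osm 8.68, Tnf 0.874 and Il13 0.497 CPM per kb. Neighbours in this order were often close: over cells, the median of Il4 in the CD34-negative gate was 93.9 CPM per kb (95% interval 62.5 to 111.9) and that of Il6 was 59.2 (31.5 to 97.8), so the intervals overlap. That of Csf1, 164.2 (121.7 to 224.9), lies above both. Il4, Il6 and Tgfb1 in the CD34-positive gate, at 27.9 (9.65 to 49.5), 23.6 (11.96 to 42.8) and 40.4 (30.5 to 54.7) CPM per kb, likewise overlap, and Csf1 at 91.6 (63.3 to 114.0) lies above them. Each interval was taken gene by gene, without pairing the values of a cell, so overlap does not settle the order. Dividing by the length of the principal transcript in place of all exons put Tgfb1 (91.2) above Osm (49.7) in the CD34-negative gate and Tgfb1 (102.5) above Il4 (93.5) in the CD34-positive gate. On that scale Csf1 was closer to the next gene, at 262.8 against 234.4 for Il4 in the CD34-negative and 121.6 against 119.3 for Il6 in the CD34-positive gate, so its place as the highest rests on small gaps there.

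Il4, which drives type 2 helper T cell differentiation and the class switch to IgE, was present in nearly every CD34-negative cell. Relative to gene reads it was lower in CD34-positive cells. Its level over CD34-negative cells had a lowest value of 0, a median of 115.2 (95% interval 76.7 to 137.4) and a highest value of 691 CPM. The CD34-positive cells had a lowest value of 0, a median of 34.2 (11.8 to 60.8) and a highest value of 299.8 CPM. The gates overlapped: 8 of 46 CD34-positive cells lay above the CD34-negative median, and 6 CD34-negative cells lay above the highest CD34-positive cell. Summed over a gate, Il4 had 4626 reads, or 138.3 CPM, in CD34-negative cells and 1656 reads, or 55.1 CPM, in CD34-positive cells. The log2 fold, which throughout is CD34-positive over CD34-negative on the scale of CPM plus 1, was -1.31 (-1.42 to -1.20), with an interval that covers counting error only and none of the difference between mice. Relative to ERCC reads the Il4 fold was -0.36. Of the 46 cells per gate, 44 and 39 had a read of Il4.

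Il13, which acts on epithelium and smooth muscle through a receptor that shares IL-4Rα with IL-4, was found in few cells. It had 80 reads in 9 CD34-negative cells and 18 reads in 3 CD34-positive cells, with a highest cell of 38.4 and 19.5 CPM. Each of these 12 cells also had Il4 reads, as did 83 of all 92 kept cells. The log2 fold was -1.08 (-1.55 to -0.57), but CD34-negative cell 6 held 35 of the 80 reads, and without it the fold was -0.58. It was -1.83 with a pseudocount of 0.1 CPM, -0.23 with 10 CPM and -0.52 with cells numbered 7 to 42 only. Cell 6 had only 7.68 CPM of Il4. Reads this few have a background: genes of the Y chromosome, which female mice lack, had 7 reads in 6 CD34-negative cells and 1 read in 1 CD34-positive cell. Of the cells with an Il13 read, 3 CD34-negative and 1 CD34-positive had 3 reads or fewer, against at most 2 Y-linked reads in any cell.

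The other genes of the locus were examined beside the pair. Il5, the eosinophil growth factor encoded on the far side of Rad50, had 0 reads in CD34-negative and 1 read in CD34-positive cells. Rad50, a DNA repair gene that lies between Il5 and Il13 and holds the control region of the locus, had 66.2 and 49.7 CPM, a log2 fold of -0.41 that was 0.54 with ERCC scaling and -0.03 without the cell with most of its reads. Kif3a, a kinesin motor gene beyond Il4, had 121.6 and 38.4 CPM, a fold of -1.64. Of the 4 locus genes with reads in at least 10 cells, 3 (Il4, Il13 and Kif3a) were at least 2-fold lower in the CD34-positive gate, against 10.1% of all genes read in as many cells. With ERCC scaling the count was 0, with Kif3a at -0.69 and 2.25% of all genes lower, and it was 2 without each gene's highest cell by reads, where 6.09% of all genes were lower.

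**Figure D1:**
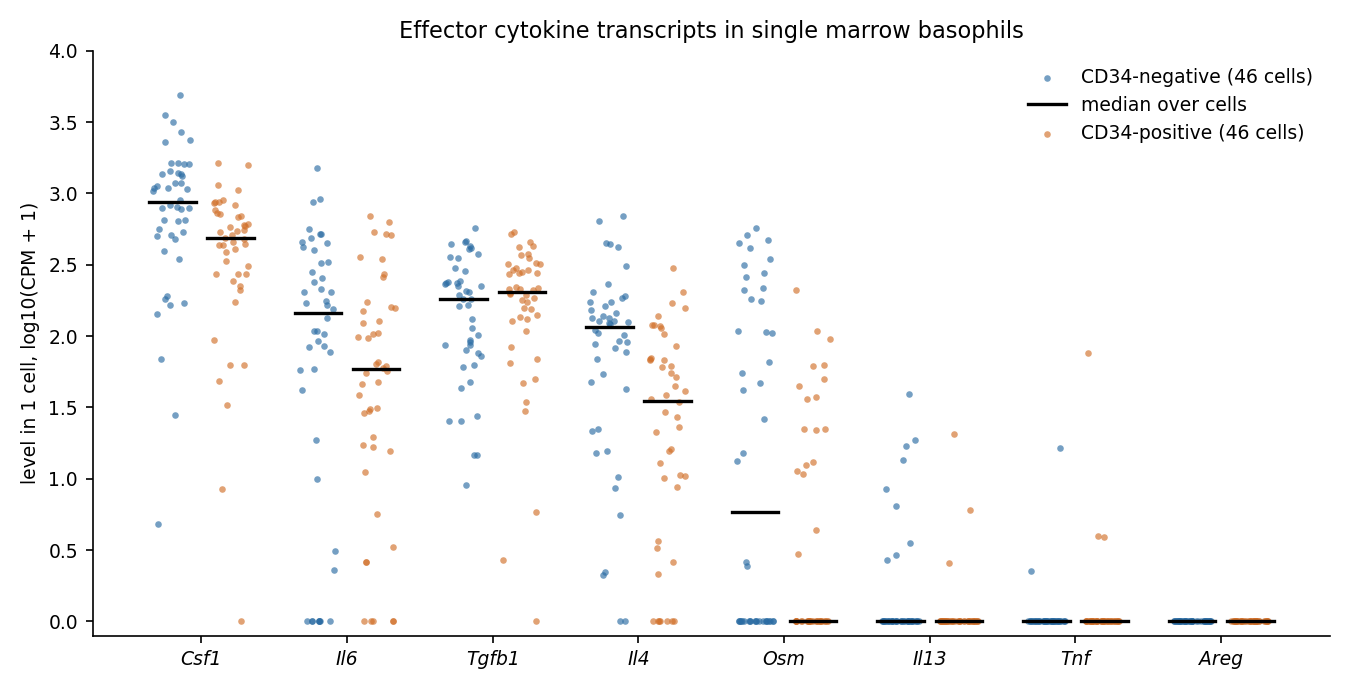
Level of each cytokine gene in each kept cell (CPM on a log10 axis after adding 1; points are cells, 46 per gate). Csf1 and Tgfb1 were found in nearly every cell, Il4 and Il6 in most, Osm in a part of the cells with many at 0, and Il13 and Tnf in a few; Areg is at 0 in all 92 cells.

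Il6 (ENSMUSG00000025746, chr5:30013114-30019981, plus strand) encodes a cytokine of the acute phase and of plasma cell growth. It was found about as often in both gates, in 38 of 46 CD34-negative and 41 of 46 CD34-positive cells, but at different levels. Its lowest, median and highest values were 0, 143.8 and 1516 CPM in CD34-negative cells. In CD34-positive cells they were 0, 57.3 and 692 CPM. Among cells with a read the medians were 187.7 and 62.8 CPM, and 13 CD34-positive cells lay above the CD34-negative median, so the gates overlapped. The summed levels were 239.4 and 136.2 CPM, a log2 fold of -0.81 (-0.89 to -0.73), which turned to 0.15 relative to ERCC reads. CD34-negative cell 24 held 16.1% of the Il6 reads of its gate, and without it the fold was -0.59.

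Osm (oncostatin M) encodes a cytokine of the IL-6 family that, like IL-6, signals through gp130. Of the 8 genes it had the widest gap between the gates. In CD34-negative cells its lowest value was 0, its median 6.94 and its highest 571.6 CPM. In CD34-positive cells the lowest value and the median were 0 and the highest was 209.0 CPM. A total of 10 CD34-negative cells lay above the highest CD34-positive cell. Of the 46 cells of each gate, 25 CD34-negative and 18 CD34-positive cells had a read, and the median among those was 174.0 against 28.2 CPM. The summed levels were 112.8 and 19.7 CPM, a log2 fold of -2.46 (-2.62 to -2.30). The highest cell, CD34-negative cell 23, also held 86.8% of all reads of the macrophage gene Adgre1 and 2352 CPM of Csf1, and without it the Osm fold was -2.29.

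Csf1 (ENSMUSG00000014599, chr3:107741048-107760469, minus strand) encodes M-CSF, the growth factor of monocytes and macrophages. It was found in 46 CD34-negative and 45 CD34-positive cells. Its lowest, median and highest values were 3.80 (in cell 10, described above), 867 and 4862 CPM in CD34-negative cells. In CD34-positive cells they were 0, 484 and 1631 CPM. Only 6 CD34-positive cells lay above the CD34-negative median, and 8 CD34-negative cells lay above the highest CD34-positive cell. The summed levels were 1097 and 508 CPM, a log2 fold of -1.11 (-1.15 to -1.07). Csf1 was thus lower in CD34-positive cells relative to gene reads, while relative to ERCC reads its fold was -0.15.

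Tnf, which encodes the inflammatory cytokine TNF, was nearly silent. It had 15 reads in 2 CD34-negative cells and 43 reads in 3 CD34-positive cells. CD34-positive cell 39 held 39 of the 43 reads (75.5 CPM) and CD34-negative cell 6 held 14 of the 15, the cell that also held more Il13 reads than any other. The log2 fold was 0.75 over all cells and -0.35 without cell 39, so it has no stable direction.

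Areg (ENSMUSG00000029378, chr5:91139599-91148432, plus strand) encodes amphiregulin, a ligand of the EGF receptor in tissue repair. It had 0 reads in both gates. A count of 0 allows up to 3 reads, or 0.0897 CPM over the CD34-negative gate and 0.0999 CPM over the CD34-positive gate, and 0 of 46 cells allows a share of up to 6.52% of cells with a read.

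Tgfb1 (ENSMUSG00000002603, chr7:25687002-25705077, plus strand) encodes TGF-β1, a regulatory cytokine that is secreted in a latent form. Relative to gene reads its level was similar in both gates, while relative to ERCC reads its log2 fold was 1.13. Its lowest, median and highest values were 8.05, 180.7 and 574 CPM in CD34-negative cells. In CD34-positive cells they were 0, 203.6 and 534 CPM, and 27 of the 46 lay above the CD34-negative median. The summed levels were 198.3 and 223.0 CPM, a log2 fold of 0.17 (0.10 to 0.24) that turned to -0.039 with edgeR's TMM factors and to -0.069 with scran size factors.

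Of the 7 genes with reads, 4 (Il4, Il13, Osm and Csf1) were at least 2-fold lower in the CD34-positive gate and 0 were at least 2-fold higher. Among the 12460 genes read in 10 or more of the kept cells, which include 6 of the 8, 10.1% were at least 2-fold lower and 21.7% at least 2-fold higher. The median log2 fold was -1.08 over the 7 genes and 0.19 over the 12460, and -0.59 over the 7 (0.35 over all) without each gene's highest cell by reads. The counts of 4 and 0 were the same without cell 10. These values are relative to all gene reads of a gate. Scaled to the ERCC spike-in, where the median of all genes was 1.04 and 2.25% were at least 2-fold lower and 51.8% higher, Osm alone was at least 2-fold lower (-1.52), and Tgfb1 (1.13) and Tnf (1.23) were at least 2-fold higher. On that scale Il4 was at -0.36, Csf1 at -0.15, Il13 at -0.58 and Il6 at 0.15. The share of the transcriptome taken by Il4 and Csf1 differed by more than their reads per spike-in read.

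**Figure D2:**
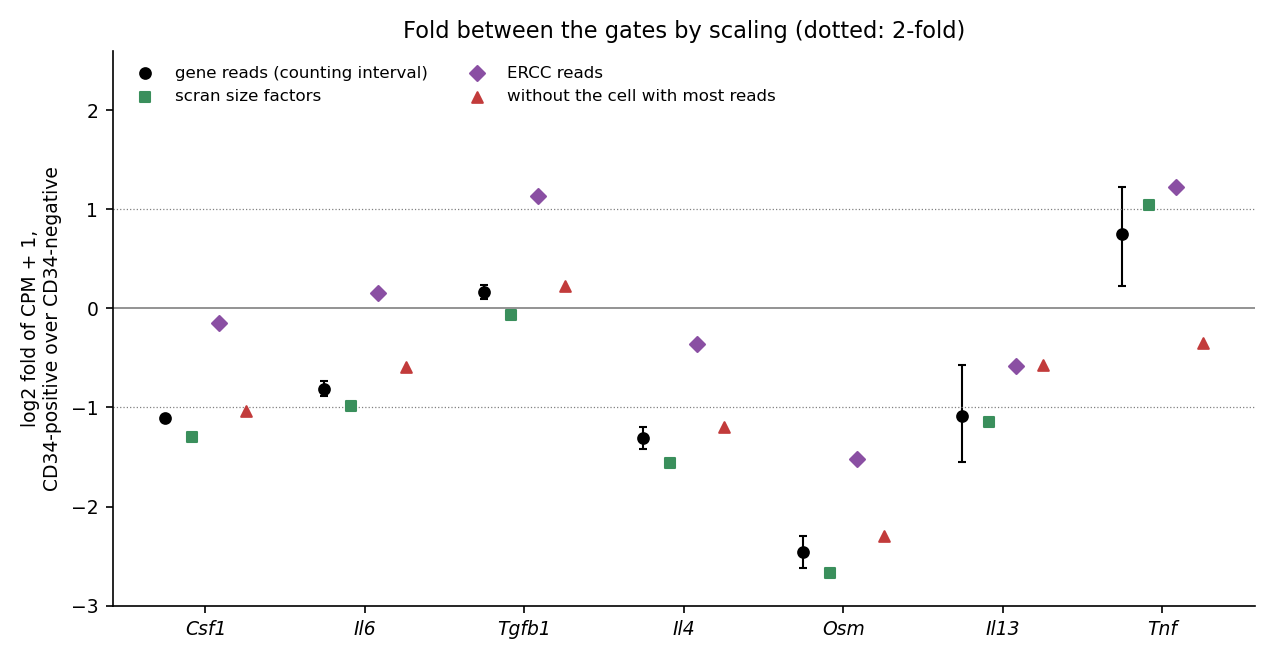
Log2 fold of each cytokine gene, CD34-positive over CD34-negative, relative to gene reads (with its 95% counting interval), with scran size factors, relative to ERCC reads, and without the cell holding most of its reads; Areg, with no read, is not drawn. Osm lies below -1 under each scaling, Il4 and Csf1 move towards 0 with ERCC reads, and Tnf changes sign without its highest cell.

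Detection was compared at an equal depth of 200000 gene reads drawn from each cell. Il4 was then found in 42 of 46 CD34-negative cells (91.3%, exact 95% interval 79.2 to 97.6) and in 36 of 46 CD34-positive cells (78.3%, 63.6 to 89.1). Osm was found in 23 (50.0%, 34.9 to 65.1) and 16 (34.8%, 21.4 to 50.2), and Il13 in 9 (19.6%, 9.36 to 33.9) and 3 (6.52%, 1.37 to 17.9). The intervals of the gates overlap for each of these genes, but they cover the drawing of cells and not differences between mice. Their overlap does not show that the shares are equal. Il6 was found in 37 and 39 cells, Csf1 in 46 and 45, Tgfb1 in 46 and 44, and Tnf in 2 and 1. The drawn share is set against the Y-linked background, which at that depth was 0 CD34-negative cells and 1 CD34-positive cell.

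**Figure D3:**
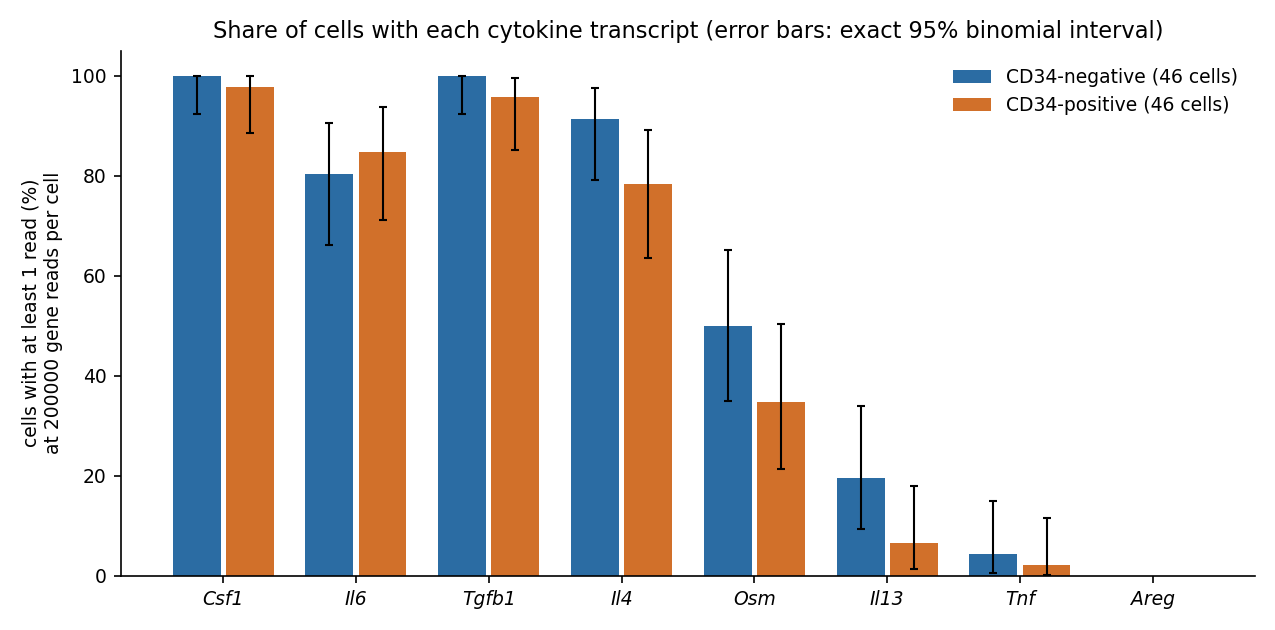
Percent of the 46 kept cells of each gate with at least 1 read of each cytokine gene at 200000 gene reads per cell, with exact 95% binomial intervals. The intervals cover the drawing of 46 cells and not differences between mice. They overlap between the gates for all genes with a read, and the shares run from near 100 for Csf1 and Tgfb1 to 0 for Areg.

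At that depth a CD34-negative cell had a median of 5 of the 8 genes (range 2 to 7) and a CD34-positive cell a median of 4 (range 2 to 6). At 100000 drawn reads both medians were 4. Il4 and Il6 were found together in 35 CD34-negative and 31 CD34-positive cells, and Il4 and Osm together in 22 and 13. Csf1 and Tgfb1 were found together in 46 and 43. Most cells thus held several cytokine messages at once, but the levels were weakly related: over the cells of a gate the highest Spearman rho was 0.324, for Il4 and Csf1 in the CD34-positive gate, given as a description of sparse counts. Pairs were compared only where both genes were found in at least 20 cells, which leaves out Osm in the CD34-positive gate and Il13 and Tnf in both. Over all reads of a cell, undrawn, cells without Il4 were few. Cells 3 and 10 of the CD34-negative gate had none. Cells 1, 7, 11, 24, 28, 35 and 44 of the CD34-positive gate had none either, and cell 28 also had no read of Il6 or Csf1.

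**Figure D4:**
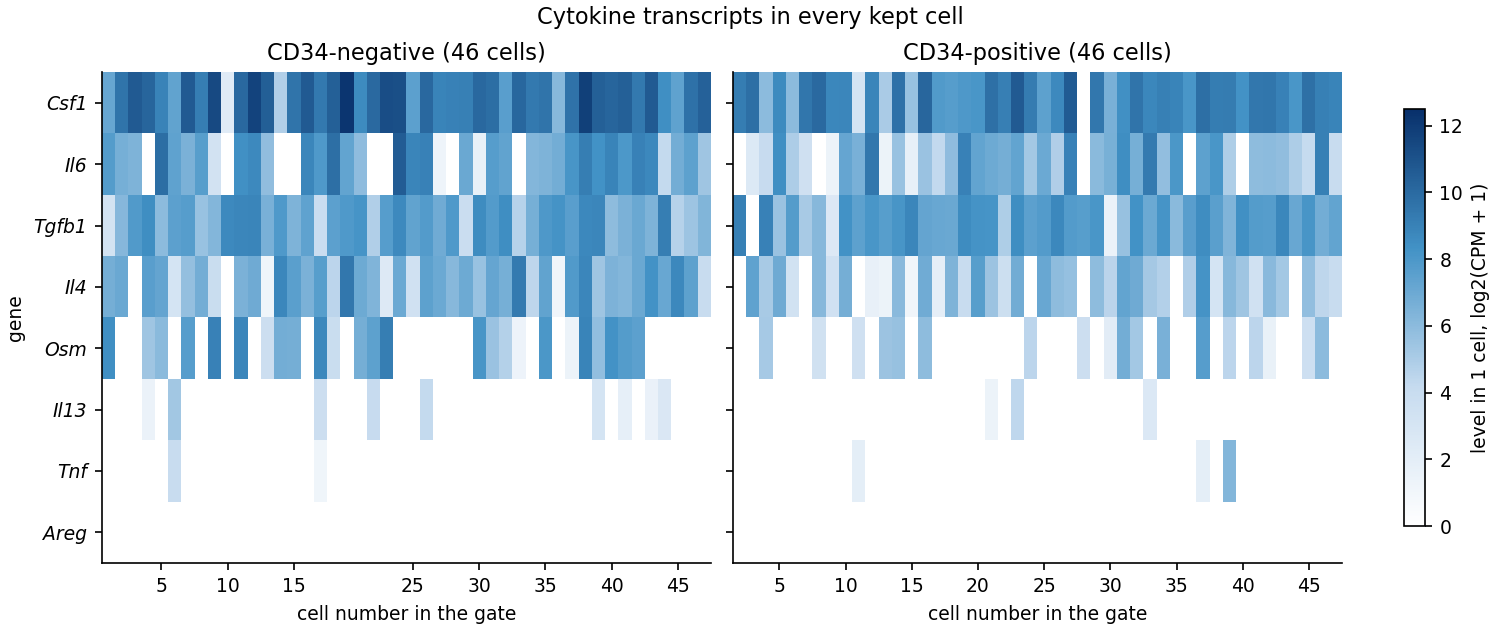
Level of the 8 genes (rows, CPM on a log2 scale after adding 1) in each of the 92 kept cells (columns), with the gates side by side. Rows of Csf1 and Tgfb1 are filled except for 1 CD34-positive cell each, the Osm row is filled in 25 CD34-negative and 18 CD34-positive cells, and the Areg row is empty.

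Genes of the cytokines' receptors, of their release and of their control were counted by lists in the same way, past 2-fold among the genes with reads in at least 10 cells. They are to be read against the 10.1% of all such genes that were lower and the 21.7% that were higher. Of 62 other secreted cytokines and growth factors 39 had reads and 12 were counted, of which 4 (33.3%) were lower and 2 (16.7%) higher in CD34-positive cells, with a median log2 fold of -0.52. The count of lower genes was 2 with the mean of per-cell CPM. Without each gene's highest cell by reads, 2 were lower and 3 higher, and without cell 10, 4 were lower and 3 higher. Hgf, the hepatocyte growth factor gene, had 888 and 405 CPM (-1.13, and -0.17 with ERCC scaling). Il16, a chemoattractant of CD4+ cells, had 210.6 and 101.5 CPM (-1.05, and -0.09 with ERCC scaling), and Ltb, the membrane lymphotoxin, 120.3 and 18.5 CPM (-2.64). Il15 had 120.3 and 92.2 CPM (-0.38, and 0.58 with ERCC scaling). In the other direction Vegfa, the angiogenic factor, had 2 reads over CD34-negative and 600 over CD34-positive cells (4.31), 53.3% of all of them in 1 cell.

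Of 15 receptor chains for these ligands 8 were counted, with 1 lower and 2 (25.0%) higher, shares near those of all genes relative to gene reads but not with scran size factors, given below. Il4ra, which binds IL-4 and IL-13, was the lower one, at 53.3 and 12.4 CPM (-2.02). CD34-positive cell 1 held 64.2% of the Il4ra reads of its gate, and without it the fold was -3.30. Tgfbr2, a signalling chain of the TGF-β receptor, had 218.5 and 114.5 CPM (-0.93, and 0.03 with ERCC scaling), while Tgfbr3, its co-receptor, had 15.2 and 72.6 CPM (2.18). Il2rg had 78.7 and 145.3 CPM (0.88). Tnfrsf1b had 106.7 and 90.9 CPM (-0.23, and 0.14 without cell 10). Csf1r, the receptor of M-CSF, had 71.5% of its reads in cell 10.

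Of 15 genes for shedding and maturation 8 were counted, with 1 lower and 2 (25.0%) higher, as for the receptor chains with summed gene reads. Furin, a protease that cuts pro-TGF-β1, had 404 and 152 CPM (-1.40, and -0.44 with ERCC scaling). Adam17, the protease that releases TNF and amphiregulin from the membrane, had 109.6 and 175.2 CPM (0.67), and its relative Adam10 had 201 and 154 CPM (-0.38, and 0.58 with ERCC scaling). Nrros, which tethers latent TGF-β1 to the surface of myeloid cells, had 111 and 207 CPM (0.89), and the integrin chain gene Itgav had 18.6 and 40.9 CPM (1.098).

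Of 13 genes of cytokine message decay and stability 12 were counted, with 1 (8.33%) lower and 2 (16.7%) higher, again near the shares of all genes. The lower one was Zfp36, which encodes the AU-rich element binding protein tristetraprolin, at 128.8 and 2.53 CPM (-5.20). The higher ones were Hnrnpd, at 78.6 and 173.8 CPM (1.13), and Tia1, at 27.5 and 100.7 CPM (1.83). Elavl1, whose product stabilises such messages, had 72.4 and 131 CPM (0.85), and Rc3h1, which encodes roquin-1, had 109 and 160 CPM (0.54). The gate with the higher levels of Il4, Osm and Csf1 thus also had the higher level of Zfp36. Their relation was not tested.

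Of 21 transcription factor genes 17 were counted, with 3 (17.6%) lower and 1 (5.88%), Gata3, higher. Without each gene's highest cell by reads 2 were lower and 0 higher, and Gata3 went from 1.65 to 0.53. In that setting 6.09% of all genes were lower and 25.8% higher. The count of lower genes was also 2 with the mean of per-cell CPM. Bhlhe40, a basic helix-loop-helix factor, had the widest gap, at 32.6 and 3.06 CPM (-3.05), and Nfatc1, an NFAT gene, had 274 and 117 CPM (-1.22, and -0.26 with ERCC scaling). Gata2, which binds the Il4 locus in basophils, had 2889 and 1919 CPM (-0.59, and 0.38 with ERCC scaling). Notch2 had 535 and 361 CPM (-0.56) and Cebpa 474 and 417 CPM (-0.18), both above 0 with ERCC scaling. Runx1 had 955 and 996 CPM (0.06), with a sign that changed between scalings. Of the 5 surface genes of resting and activated cells that were counted, 2 were lower and 0 higher, and 1 was lower without each gene's highest cell by reads. Cd69, an early activation marker, had 57.9 and 26.5 CPM (-1.10, and -0.16 with ERCC scaling) in 16 and 15 cells. Cd63, which reaches the surface on degranulation, had 710 and 801 CPM (0.17), with a sign that turned with TMM and scran scaling. The inhibitory receptor gene Cd200r1 had 341 and 190 CPM (-0.84, and 0.13 with ERCC scaling). Its relative Cd200r3 had 3549 and 1279 CPM (-1.47, and -0.51 with ERCC scaling), and Lamp1 had 192 and 280 CPM (0.54). These counts also depend on the scaling. With ERCC scaling the lower and higher counts were 1 and 5 for the cytokines, 1 and 3 for the receptor chains, 0 and 4 for shedding and maturation, 1 and 8 for message decay, 1 and 6 for the transcription factors, and 0 and 2 for the surface genes, where 2.25% of all genes were lower and 51.8% higher. With TMM factors they were 5 and 2, 2 and 2, 2 and 1, 1 and 1, 4 and 1, and 3 and 0 in the same order, where 13.98% of all genes were lower and 17.7% higher. With scran size factors they were 6 and 2, 4 and 1, 2 and 1, 1 and 1, 4 and 1, and 2 and 0, where 13.7% of all genes were lower and 17.6% higher.

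Markers of other cells that could make these cytokines were read in the same cells. For monocytes, macrophages and dendritic cells all 8 markers had reads, and their summed level was higher in the gate with the higher cytokine levels, at 563 CPM over CD34-negative and 61.9 CPM over CD34-positive cells. Over cells it ranged from 0 to 2997 CPM with a median of 295.1 in the CD34-negative gate, and from 0 to 813 CPM with a median of 17.4 in the CD34-positive gate. Most of it in both gates was Ccr2, a chemokine receptor gene, at 493.4 CPM (read in 41 cells) in the CD34-negative gate and 40.5 CPM (15 cells) in the other (-3.57). Of the 3 genes of this list with reads in at least 10 cells Ccr2 alone was at least 2-fold lower, while Cd68 (0.16) and Itgax (0.06) were not, and the median log2 fold was 0.06. Cd68 and Itgax were each read in 3 CD34-negative and 7 CD34-positive cells. In the CD34-negative gate 60.7% of the Cd68 reads lay in cell 10 and 86.0% of the Itgax reads in 1 cell. Both of these levels thus rest mostly on 1 cell. Beyond leaving out cell 10, the part of these genes in the cytokine levels was not tested.

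For type 2 innate lymphoid and T cells 5 of 9 markers had reads, and Cd3g, Cd4, Trac and Klrg1 had 0. The summed level of this list too was higher in CD34-negative cells, at 243.1 against 69.6 CPM, and ranged over cells from 0 to 1435 and from 0 to 714 CPM. Il7r, the IL-7 receptor gene, gave most of it in CD34-negative cells (166 CPM, against 26.4), and Rora gave most of it in CD34-positive cells (40.3 CPM, against 76.4), with 54.4% of the Rora reads of that gate in 1 cell. Gata3 went the other way, at 0.239 and 2.90 CPM (1.65), with 67.4% of its reads in CD34-positive cell 16. The part of this list was not tested.

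Of the megakaryocyte list Pf4 and Ppbp had 0 reads, and Itga2b had 1444 and 930.4 CPM. Cells ranged from 0 to 506 CPM of the B cell list in the CD34-negative gate and from 0 to 589 in the CD34-positive gate, with Cd79b the highest of its genes. Of the eosinophil list 5 of 7 had reads, at 0 to 1099 and 0 to 1496 CPM, with Ear1 and Ear6 at 0 and 96.5% of the Prg2 reads in CD34-positive cell 34. Siglecf gave nearly all of its summed level in CD34-negative cells, at 76.5 CPM in 21 cells, and had 60.3 CPM in 23 CD34-positive cells. The neutrophil list (4 of 7 read, with Ltf, Camp and Ly6g at 0) ranged from 0 to 235 and from 0 to 472 CPM, nearly all of it Lcn2, at 19.6 CPM in 7 CD34-negative cells and 66.6 CPM in 27 CD34-positive cells (1.71). The mast cell list (4 of 7 read) reached 1.43 and 284.8 CPM, with 99.3% of the Tpsab1 reads in CD34-positive cell 5. The erythroid list (3 of 4 read, with Hba-a1 at 0) reached 31.2 and 270.9 CPM, and the NK cell list had 1 read in all. The part of these lists in the cytokine levels was not tested.

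Genes with the pattern most like each cytokine gene were ranked by Spearman rho over the 46 cells of a gate, at 200000 drawn reads, among genes found in at least 20 cells. These genes share the cells' depth and libraries, and many were compared, so the order is a description. In the CD34-negative gate the leading gene was Rpl37 for Il4 (0.550), Grcc10 for Il6 (0.518), Tmem71 for Csf1 (0.516) and Eml3 for Tgfb1 (0.551). For Osm, after a gene without a symbol, they were H3f3b (0.512), Kdm6b (0.479), Cd200r3 (0.470) and Zmynd11 (0.460). In the CD34-positive gate it was Rab27a for Il4 (0.609), Bsdc1 for Il6 (0.606), Smpdl3a for Csf1 (0.494) and Hmga1 for Tgfb1 (0.592). No gene led for the same cytokine gene in both gates, and between 2 and 4 of the 5 leading genes were the same when undrawn CPM was ranked. On that scale other genes led in the CD34-negative gate for Il4 (Tsc22d4), Il6 (Dock5) and Csf1 (C3ar1). In the CD34-positive gate they did for Il4 (Tnfaip8l2) and Csf1 (Baz2a), while the other leaders stayed. Of the genes with a symbol named for Osm, Cd200r3 alone stayed among the 5.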

How the data were processed

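The authors deposited 1 table of whole read counts per gene and cell, not normalized, from modified Smart-seq2 libraries (19 PCR cycles and 50 bp reads from 1 end, per the labels' protocols). GSNAP, HTSeq 0.5.3p3 and mm10 are named per the submitters' processing notes; the annotation and the strand setting are not given in the sources used here, so antisense reads cannot be told apart. No exon of another GENCODE M21 gene overlaps an exon of the 8 genes. Of all reads 32.4% were gene reads, 3.97% ERCC, 7.68% ambiguous, 33.0% without a feature and 22.9% not aligned; only gene reads entered library sizes. Symbols were matched for 45143 of 46078 identifiers.

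The filter asked of a cell 50000 or more gene reads, 1000 or more genes, under 20% mitochondrial reads and under 50% ERCC reads of gene plus ERCC reads. No doublet caller was run on these singly sorted cells. Reads were summed per gate and divided by the gate's gene reads (CPM), and log2 folds use CPM plus a pseudocount of 1. Sums have exact Poisson, shares exact Clopper-Pearson and medians order-statistic 95% intervals. A fold interval takes the bounds of both gates at their farthest and nearest. Since molecular identifiers were not used, intervals and floors (3 reads) on summed reads cover counting error only. Intervals of shares and medians cover the drawing of 46 cells, and none covers differences between mice. No test was run, since each gate is 1 sample.

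The genes and lists were chosen with earlier results of these data known. Of each pathway list (not of the cell type marker lists) the up to 4 genes with the highest CPM, and up to 2 of the largest fold with at least 10 CPM, are named; Il4ra, Adgre1, the marker genes and the single cells, which lie outside that rule, were chosen after their values were seen. Of the calculations, only the summed folds and the drawing of reads to a fixed depth were tested on simulated data. The simulated cells had no spread beyond counting, and the changed genes had at least 10 CPM. The alternatives are in the closing section. The TMM factors came from edgeR 4.0.16, used for nothing else, and the size factors from scran 1.30.0, both in R 4.3.3. Sums, draws and intervals used pandas 2.3.3, scipy 1.17.1 and numpy 2.4.6 in Python 3.11.15, and figures matplotlib 3.10.9.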

Additional observations from a re-analysis of the deposited data

Results flagged for a closer look

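Reads of these genes were also present in the 2 cells left out for low depth, which no comparison used. CD34-negative cell 20, with 24565 gene reads, had 49 reads of Csf1 and none of the others. CD34-positive cell 3, with 31504 gene reads, had 4 reads of Csf1 and 13 of Tgfb1 and none of the others. Each of these values is above the floor of 3 reads used for a count of 0.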

How the results depend on the processing

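No paired analysis was possible because cell numbers in the labels (1 to 47) only name cells and each gate is 1 sample. The median log2 fold of the 7 genes was -1.08, went to -0.15 with ERCC scaling, was -0.59 without each gene's highest cell by reads, and ranged from -1.18 to -0.82 when 1 cell was left out at a time. The number at least 2-fold lower, 4, was 1 with ERCC scaling, 5 with TMM factors, 3 with a pseudocount of 10 CPM, with cells numbered 7 to 42 and without each gene's highest cell by reads, and 3 to 4 with 1 cell left out. The number at least 2-fold higher, 0, was 1 with the mean of per-cell CPM, with scran size factors, with a pseudocount of 0.1 CPM and with cells numbered 7 to 42, and 2 with ERCC scaling. It was 0 to 1 with 1 cell left out, the 1 being without CD34-negative cell 6. The median of all genes was 0.19, and 0.02 with TMM factors and 0.01 with scran size factors. The difference of medians of genes found per cell, 1 at 200000 drawn reads, was 0 at 100000. Directions turned for Il6 with ERCC scaling (0.15), for Tgfb1 with TMM factors (-0.039) and scran size factors (-0.069), and for Tnf without CD34-positive cell 39 (-0.35, the lowest of -0.35 to 1.24 with 1 cell left out). The cause was not tested. Of 91 alternative log2 folds of single genes 59 stayed within the counting interval, 28 moved further in the same direction or towards 0, and 4 turned. Leaving out CD34-negative cells 25 and 36, chosen after seeing the data as was leaving out CD34-negative cell 10 and CD34-positive cell 1, gave Il4 -1.38 and Csf1 -1.17. Il13 and Tnf had the fewest reads of the 7 genes, and asking for at least 10 reads at 200000 drawn reads left no CD34-negative cell with Il13.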

Other observations

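Among the other cytokine genes, some had most of their reads in 1 cell. They were picked after their values were seen. Il1b, the inflammatory cytokine, had 59 of its 68 reads in CD34-negative cell 10, the cell with macrophage genes. Il1rn, which encodes the antagonist of IL-1, had 423 of 525 reads in CD34-negative cell 15, and Ctf1, an IL-6 family cytokine, had 85 of 100 in CD34-positive cell 13. Il18 had all 39 of its reads in CD34-positive cell 20. Egf had 99 of 163 reads in CD34-positive cell 22. Il27 was less concentrated, with 106 of 226 reads in CD34-negative cell 24, the cell with the most Il6, and 72 in the next. None of these genes had reads in 10 cells or more, so no fold between the gates is given.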
